A study of Microtus ochrogaster and Microtus pennsylvanicus and Peromyscus californicus with 10 samples.

Results

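The set described here holds 100 protein IDs whose read abundance in brain RNA separated voles (genus Microtus) from Peromyscus mice. The IDs were chosen by their RPM (reads scaled to library size) in 4 libraries, out of 9375 IDs listed in all 4 rodent tables and 19750 listed in at least 1. An ID entered when the lower RPM of one genus was at least 8 times the higher RPM of the other and when the 2 libraries of each genus lay less than 4-fold apart. In 48 IDs (0.512% of the 9375) the voles were high, and in 52 IDs (0.555%) the Peromyscus mice were high. These are called vole-high and Peromyscus-high IDs. Because the RPM values chose the members, the difference between the genera is given below as a description, without a test.

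The series sampled 10 species, with 1 library of fore- and midbrain RNA each, made from a pool of 3 reproductive males. The 4 libraries used here are those of M. ochrogaster (prairie vole), M. pennsylvanicus (meadow vole), P. californicus (California mouse) and P. maniculatus (North American deer mouse). No agent, strain or age was given for any of them, so each genus is represented by 2 species and each species by 1 pool. The title frames the study around monogamy, and from general knowledge of the species M. ochrogaster and P. californicus form pair bonds while M. pennsylvanicus and P. maniculatus do not. The RPM scale rested on 274693175 reads in M. ochrogaster and on 75649532 to 101971826 in the other 3 libraries.

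Voles and Peromyscus mice both belong to the hamster family of rodents (Cricetidae), and each genus holds closely related species that differ in social behaviour. Voles are mostly grassland grazers, whereas Peromyscus mice are agile seed and insect eaters of many habitats. An ID that is alike in both species of a genus and far apart between genera splits mainly by genus. The rule allows differences of up to 4-fold within a genus, so a smaller difference by mating system can remain. All 4 tables use Ensembl protein IDs with the prefix ENSRNOP, and the files pair none of these with a gene name. Of the 19750 IDs, 0 were found in the gene table available here, so members are described by ID, functions are not given, and the labelled tissue was not checked against marker genes. A higher RNA level and a larger share of a genus' reads assigned to an ID cannot be told apart in these tables, nor can genus be separated from any step that differed between species.

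Of the 9375 shared IDs, 5441 (58.0%) met the 4-fold limit in both genera. The limit was exceeded by 2656 IDs in the voles and by 2133 in the Peromyscus mice. Among IDs within the limit, the 2 vole libraries both exceeded the 2 Peromyscus libraries in 1489 and both fell below them in 1185. At a gap of at least 4-fold, 111 and 118 IDs remained, and at 8-fold the 48 and 52 members. On the RPM scale the directions parted further out, whereas an alternative scaling described below (TMM factors) gave 40 and 60 IDs already at 8-fold. A gap of 16-fold or more was held by 19 vole-high and 30 Peromyscus-high IDs, 32-fold by 3 and 15, and 64-fold by 1 and 9. The gap is the lower RPM of the high genus divided by the higher RPM of the low genus, so it is the smallest of the 4 ratios between a vole and a Peromyscus library.

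The voles carried the vole-high IDs at middling read levels, and the Peromyscus mice at much lower ones, which the rule requires. Their RPM ran from 2.33 over a median of 21.2 to 441 in M. ochrogaster and from 2.59 over 21.7 to 427 in M. pennsylvanicus. In P. californicus the same IDs ran from 0.118 over a median of 1.02 to 51.6, and in P. maniculatus from 0.0981 over 1.04 to 32.7. Under 1 RPM were 24 of the 48 IDs in the California mouse and 23 in the deer mouse, against 0 in either vole. Together the 48 IDs took up 2625 RPM (0.262% of the scale) in M. ochrogaster, 2055 RPM in M. pennsylvanicus, 123 RPM in P. californicus and 121 RPM in P. maniculatus.

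The Peromyscus-high IDs drew more reads in their high genus. Their RPM ran from 11.99 over a median of 73.4 to 725 in P. californicus and from 7.44 over 68.7 to 900.1 in P. maniculatus. In M. ochrogaster the same IDs ran from 0.404 over a median of 1.84 to 14.2, and in M. pennsylvanicus from 0.357 over 2.18 to 32.3. Together they took up 6923 RPM (0.692% of the scale) in P. californicus and 7189 RPM (0.719%) in P. maniculatus, against 181 RPM in M. ochrogaster and 201 RPM in M. pennsylvanicus. The lower RPM of the high genus was at least 100 in 17 of 52 Peromyscus-high IDs and in 4 of 48 vole-high IDs. RPM is not divided by length, so these are amounts of reads and not of transcripts.

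**Figure D1:**
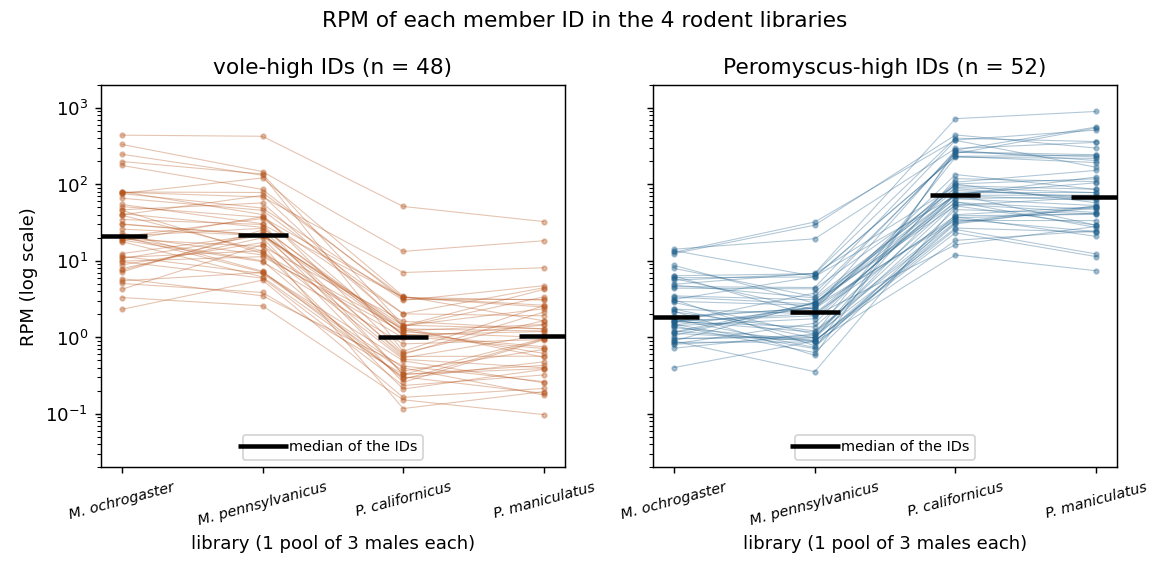
RPM (log scale) of every vole-high ID (left) and Peromyscus-high ID (right) in the 4 libraries, with 1 line per ID and black bars at the median of the IDs. The medians are 21.2 and 21.7 RPM in the voles against 1.02 and 1.04 in the Peromyscus mice on the left, and 1.84 and 2.18 against 73.4 and 68.7 on the right.

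Ranked within each library among the 9375 shared IDs, the Peromyscus-high IDs stood higher in their high genus than the vole-high IDs did in theirs, and both sets stood near the bottom in the low genus. The vole-high IDs had a median percentile of 48.0 in the prairie vole and 49.0 in the meadow vole, and of 6.17 in the California mouse and 7.23 in the deer mouse. The Peromyscus-high IDs had a median percentile of 74.3 in the California mouse and 76.2 in the deer mouse, and of 4.603 in the prairie vole and 13.4 in the meadow vole. The low ends of the libraries differed. Under 1 RPM were 195 shared IDs in the prairie vole, 655 in the meadow vole, 567 in the California mouse and 647 in the deer mouse. A given low RPM therefore ranked lower in the prairie vole. How far this shaped the difference in level and rank between the sets was not tested. Above the median of the shared IDs were 23 and 22 of the 48 vole-high IDs in the 2 voles, compared with 46 and 48 of the 52 Peromyscus-high IDs in the 2 Peromyscus mice. In the low genus nearly all lay in the lowest 25% of a library. This held for 46 and 45 of the 48 vole-high IDs in P. californicus and P. maniculatus, and for 47 and 43 of the 52 Peromyscus-high IDs in M. ochrogaster and M. pennsylvanicus.

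**Figure D2:**
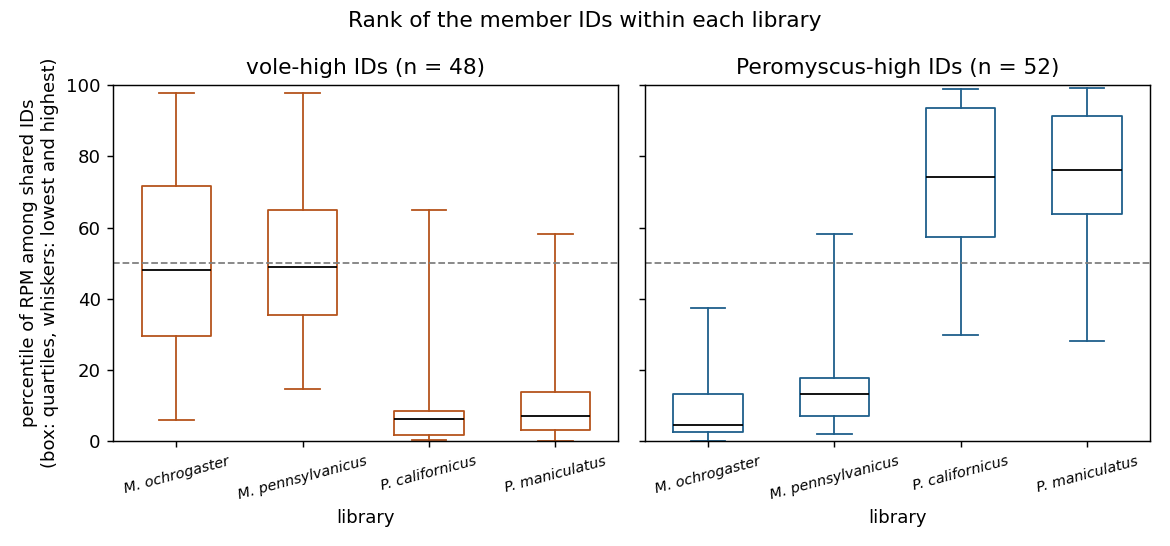
Percentile of RPM among the 9375 shared IDs within each library, for vole-high IDs (left) and Peromyscus-high IDs (right), with boxes at the quartiles, whiskers to the lowest and highest ID and a dashed line at 50. Median percentiles are 48.0 and 49.0 for vole-high IDs in the voles, and 74.3 and 76.2 for Peromyscus-high IDs in the Peromyscus mice.

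The widest gap among vole-high IDs belonged to ENSRNOP00000061003. It had 199.6 RPM in the prairie vole and 137 in the meadow vole, against 1.45 in the California mouse and 1.29 in the deer mouse, a gap of 94.7-fold. The exact 95% counting interval of this gap, from the 2 counts that set it, was 79.3 to 114-fold. This ID was the single vole-high member beyond 64-fold, and both species of each genus were close to each other.

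ENSRNOP00000024901 followed at 50.6-fold (counting interval 44.8 to 57.4), with 248 RPM in M. ochrogaster, 132 in M. pennsylvanicus, 0.659 in the California mouse and 2.61 in the deer mouse. Its Peromyscus values differed 3.96-fold, the closest of all vole-high IDs to the 4-fold limit. ENSRNOP00000015759 had 39.7 and 13.5 RPM in the same voles and 0.212 and 0.382 RPM in the Peromyscus mice, a gap of 35.4-fold resting on 18 and 39 Peromyscus reads. ENSRNOP00000003006 came next with 54.8 and 30.7 RPM in the voles, 0.330 in the California mouse and 0.971 in the deer mouse (31.6-fold). In these 3 IDs the prairie vole had the higher vole value and the deer mouse the higher Peromyscus value.

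The other 6 of the 10 widest vole-high gaps lay between 21.7 and 27.4-fold. ENSRNOP00000066598 was the most even of them, with 79.7 and 78.5 RPM in M. ochrogaster and M. pennsylvanicus and 3.34 and 3.08 RPM in P. californicus and P. maniculatus. ENSRNOP00000013530 was as even in the Peromyscus mice, at 3.14 RPM in both, but had 177 RPM in the prairie vole and 86.2 in the meadow vole. ENSRNOP00000064339 was higher in the meadow vole, at 122 RPM against 76.3 in the prairie vole, and had 3.46 RPM in the California mouse and 1.65 in the deer mouse. ENSRNOP00000028550 had 80.4 and 40.4 RPM in the voles, and ENSRNOP00000061773 had 41.6 and 27.5 RPM. At the low end of read support, ENSRNOP00000049722 had 4.26 RPM in the prairie vole and 16.3 in the meadow vole but 10 and 20 reads in the 2 Peromyscus libraries.

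The 2 vole-high IDs with the highest lower RPM in the voles had gaps just past 8-fold. ENSRNOP00000020750 had 441 RPM in the prairie vole and 427 in the meadow vole, against 51.6 in the California mouse and 32.7 in the deer mouse, a gap of 8.27-fold. It was the vole-high ID that stayed most abundant in the low genus. ENSRNOP00000002231 had 334 and 147 RPM in the voles and 13.3 and 18.4 RPM in the Peromyscus mice, and at 8.03-fold it was the narrowest member. ENSRNOP00000022767 had 79.0 and 68.6 RPM against 7.06 and 8.15 RPM (8.42-fold).

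Among Peromyscus-high IDs the widest gap was that of ENSRNOP00000059649. It had 227 RPM in the California mouse and 219 in the deer mouse, against 0.724 in the prairie vole and 1.11 in the meadow vole, a gap of 197-fold (counting interval 159 to 247). ENSRNOP00000011307 had 264 and 229 RPM in the Peromyscus mice and 1.49 and 0.714 RPM in the voles, a gap of 154-fold (counting interval 139.9 to 171). These were the 2 widest gaps of all 100 members, and both Peromyscus species were nearly equal in each.

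A further 3 Peromyscus-high IDs exceeded 100-fold. ENSRNOP00000025279 had 281 RPM in the California mouse and 564 in the deer mouse, against 1.79 and 2.46 in M. ochrogaster and M. pennsylvanicus (114-fold). ENSRNOP00000012005 had 119 and 109 RPM against 0.815 and 0.991 RPM (109.7-fold), with little difference within either genus. ENSRNOP00000009214 was the most abundant Peromyscus-high ID in both Peromyscus libraries, at 725 RPM in the California mouse and 900.1 in the deer mouse, and had 4.96 RPM in the prairie vole and 6.91 in the meadow vole (105-fold). All 5 IDs beyond 100-fold were thus under 10 RPM in both voles.

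The remaining 5 of the 10 widest Peromyscus-high gaps ran from 53.4 to 93.1-fold. ENSRNOP00000057901 had 279 RPM in the California mouse and 205 in the deer mouse, while its vole values of 2.21 RPM in the prairie vole and 0.582 in the meadow vole differed 3.79-fold. ENSRNOP00000044341 had 253 and 547 RPM in the Peromyscus mice and 1.59 and 3.81 RPM in the voles, higher in the nonmonogamous species of both genera. ENSRNOP00000008643 was flat within the genera, with 402 and 364 RPM in P. californicus and P. maniculatus and 6.41 and 6.81 RPM in M. ochrogaster and M. pennsylvanicus. ENSRNOP00000051338 had 74.8 and 105 RPM against 0.972 and 1.005 RPM, and ENSRNOP00000015180 had 102 and 119 RPM against 0.826 and 1.53 RPM.

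Several abundant Peromyscus-high IDs had narrower gaps, with more than 10 RPM in both voles. ENSRNOP00000008121 had 380.5 RPM in the California mouse and 513 in the deer mouse, with 13.0 RPM in the prairie vole and 32.3 in the meadow vole (11.8-fold). ENSRNOP00000022625 had 444 and 299 RPM in the Peromyscus mice and 12.5 and 29.4 RPM in the voles (10.2-fold). ENSRNOP00000011551 had 296 and 355 RPM against 14.2 and 19.5 RPM (15.2-fold). In all 3 the meadow vole was above the prairie vole. The gaps of ENSRNOP00000063421 (233 and 241 RPM against 6.03 and 6.19 RPM) and ENSRNOP00000007249 (267 and 244 RPM against 7.99 and 3.41 RPM) were wider, at 37.7-fold and 30.6-fold.

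The read counts behind the low values set how firmly a gap is known. Every one of the 100 members had at least 10 reads in each library. Vole-high IDs had a median of 86.5 reads in the California mouse and 106.5 in the deer mouse, and a minimum of 10 in both. Peromyscus-high IDs had a median of 505 reads in the prairie vole and 165 in the meadow vole, with minima of 111 and 27. The lower bound of the counting interval was still at or above 8-fold in 32 of 48 vole-high and 48 of 52 Peromyscus-high IDs. These intervals cover counting error only, not variation between animals, and reads without molecular identifiers are not independent molecules.

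**Figure D3:**
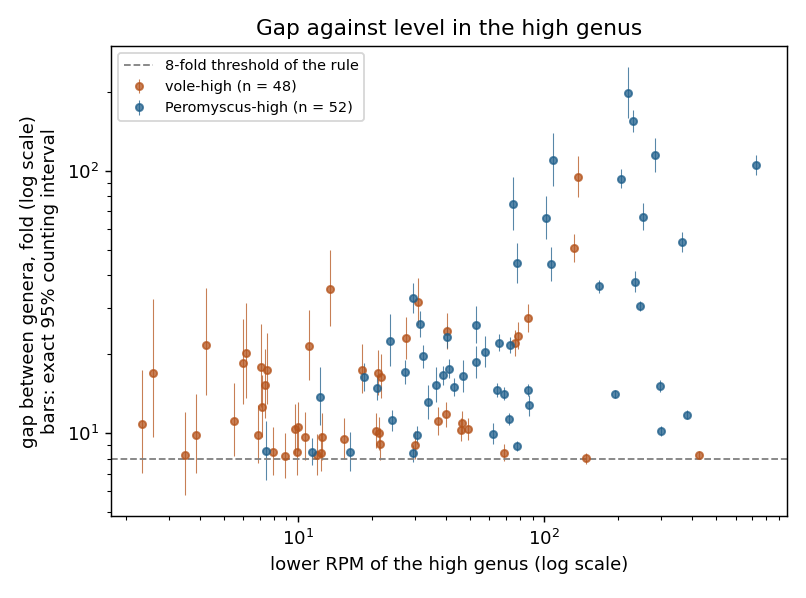
Gap between the genera (fold, log scale) against the lower RPM of the high genus (log scale) for the 48 vole-high and 52 Peromyscus-high IDs, with exact 95% counting intervals as bars and the 8-fold threshold dashed. The points above 100-fold are all Peromyscus-high, and the widest vole-high gap is 94.7-fold.

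The threshold of 8-fold fell within a run of closely spaced gaps. Just inside were the vole-high IDs ENSRNOP00000002231 (8.03-fold), ENSRNOP00000028334 (8.18-fold) and ENSRNOP00000045235 (8.26-fold), and just outside ENSRNOP00000047792 (7.95-fold), ENSRNOP00000064368 (7.83-fold) and ENSRNOP00000028732 (7.72-fold). ENSRNOP00000064368 was abundant, with 403 RPM in the prairie vole and 776 in the meadow vole against 33.9 and 51.4 in the Peromyscus mice. In the other direction the nearest inside were ENSRNOP00000041020 (8.38-fold), ENSRNOP00000062179 (8.49-fold) and ENSRNOP00000062295 (8.49-fold). The nearest outside were ENSRNOP00000056036 (7.96-fold), ENSRNOP00000023748 (7.81-fold) and ENSRNOP00000011326 (7.76-fold).

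The within-genus limit removed IDs in both directions. A gap of 8-fold or more, with no limit, was held by 65 IDs in the vole-high direction and 83 in the Peromyscus-high direction, so the limit took out 17 and 31. It kept 48 of 65 and 52 of 83, compared with 58.0% of all 9375 shared IDs. Of the 31 Peromyscus-high candidates left out, 28 exceeded the limit in the voles, and M. ochrogaster was the higher vole in 24 of these 28. Over all shared IDs, at any level, M. ochrogaster was the higher vole in 54.2%. Under 1 RPM were 195 shared IDs in M. ochrogaster against 655 in M. pennsylvanicus. Of the 17 vole-high candidates left out, 11 exceeded it in the Peromyscus mice, where P. californicus was the higher in 3, and 6 in the voles. Each candidate left out thus broke the limit in 1 genus, since 0 broke it in both, and the low genus was the usual place. ENSRNOP00000002033, a Peromyscus-high member at 3.99-fold between the voles (3.11 RPM in M. ochrogaster, 0.780 in M. pennsylvanicus), lay just inside. ENSRNOP00000056847, at 4.24-fold between the voles (8.30 and 1.96 RPM), lay just outside.

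Within the genera no order of species held for all members. On the RPM scale, M. ochrogaster was above M. pennsylvanicus in 31 of 48 vole-high and 26 of 52 Peromyscus-high IDs, compared with 2633 of the 5441 shared IDs within the limit (48.4%). P. californicus was above P. maniculatus in 21 of 48 vole-high and 30 of 52 Peromyscus-high IDs, compared with 61.5% of the 5441. This second split depended on the scaling. With TMM factors (trimmed mean of M values, an alternative scaling) P. californicus was the higher in 15 of 48, 19 of 52 and 43.7%, and the median log2 ratio of P. californicus over P. maniculatus across all shared IDs moved from 0.22 to -0.03. The vole split was 29 of 48 and 24 of 52 with those factors, compared with 43.6% of the 5441. Under both scalings the vole-high IDs thus lay above the background share for M. ochrogaster and below it for P. californicus. That difference from the background was not tested.

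Both monogamous species were the higher of their genus in 13 vole-high and 17 Peromyscus-high IDs on the RPM scale, and both the lower in 9 and 13. The directions were opposite in the other 26 and 22. Of the 5441 shared IDs within the limit, 30.9% were higher in both monogamous species, 21.0% lower in both and 48.1% opposite, so the members' counts lay near this background. With TMM factors the counts were 8 and 11 higher, 12 and 20 lower, and 28 and 21 opposite. The same scaling turned the 5441 IDs from 1680 higher and 1143 lower to 1143 higher and 1831 lower, so the shift was not limited to the members. The typical difference within a genus was small beside the gap. Its median size was 1.70-fold between the voles and 1.56-fold between the Peromyscus mice for vole-high IDs, and 1.503-fold and 1.29-fold for Peromyscus-high IDs. In 22 vole-high (45.8%) and 26 Peromyscus-high IDs (50%) both genera were within 2-fold, compared with 60.6% of the 5441. These sizes are bounded by the rule.

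**Figure D4:**
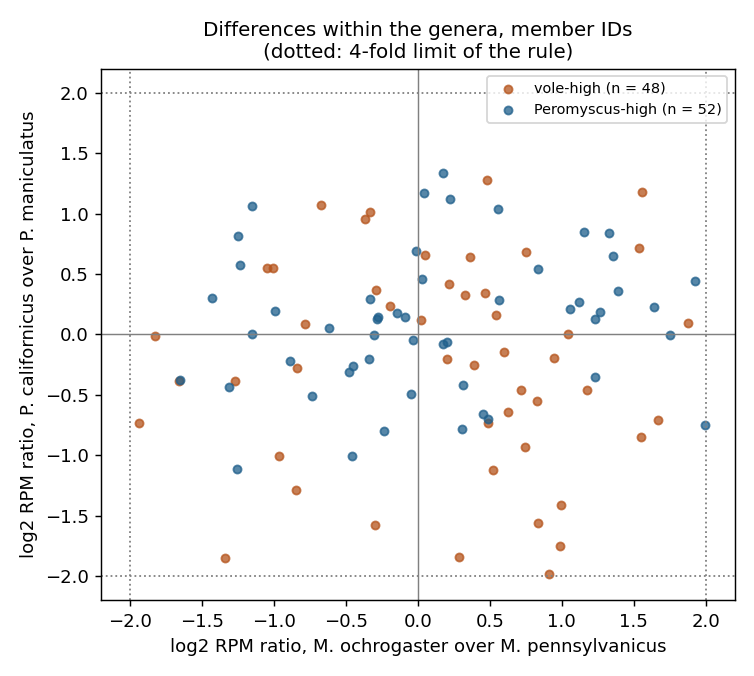
Log2 RPM ratio of P. californicus over P. maniculatus against that of M. ochrogaster over M. pennsylvanicus for the 48 vole-high and 52 Peromyscus-high IDs, with the 4-fold limit of the rule dotted. The points spread over all 4 quadrants, with 13 and 17 IDs in the upper right and 9 and 13 in the lower left.

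The mating-system contrast, which compares the species within each genus, was the test that the genus difference did not use, although the 4-fold limit bounds it. It was fitted on all 9375 shared IDs with edgeR's quasi-likelihood test and the genus as block, and 0 IDs (0%) passed an adjusted p of 0.05. Before adjustment, 232 IDs (2.47%) had a p under 0.05. The members had 0 adjusted calls, and unadjusted calls for 0 of 48 vole-high and 1 of 52 Peromyscus-high IDs. Among the 5441 IDs within the limit, 9 had such a p (0.165%). DESeq2's Wald test called 288 of the 9375 IDs but 0 of the 5441 within the limit, so its 0 calls among the members follow from the selection. Some IDs, members among them, were given no adjusted p by DESeq2 and count here as not called.

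The 1 member was ENSRNOP00000044341, described above, with the higher value in the nonmonogamous species of both genera. Its log2 fold change of monogamous over nonmonogamous species was -1.36 ± 0.41 (approximate SE: absolute log2 fold change over the root of the F statistic). Its p was 0.048 before and 0.974 after adjustment in edgeR. With 1 residual degree of freedom, a difference that misses the threshold is not shown to be absent.

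Other mating-system fold changes of this size did not pass either. The lowest among vole-high IDs was that of ENSRNOP00000024418, at 7.93 RPM in the prairie vole and 20.1 in the meadow vole, and at 0.259 in the California mouse and 0.932 in the deer mouse (log2 fold change -1.76 ± 0.89, edgeR adjusted p = 0.974). The highest was that of ENSRNOP00000011115, at 21.0 and 7.12 RPM in the voles and 0.400 and 0.177 RPM in the Peromyscus mice (log2 fold change 1.20 ± 0.87, edgeR adjusted p = 0.974). Both rested on 18 to 95 reads in the Peromyscus libraries. Among Peromyscus-high IDs the highest was that of ENSRNOP00000057901 (log2 fold change 0.998 ± 0.68, edgeR adjusted p = 0.974), with a log2 RPM ratio of 1.92 within the voles, on 44 reads in M. pennsylvanicus, and of 0.44 within the Peromyscus mice. Over all members the fold change ran from -1.76 to 1.20 on the log2 scale. Its median was -0.12 in vole-high and -0.20 in Peromyscus-high IDs, beside -0.03 over all IDs tested and -0.11 over those within the limit.

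The members were spread over the range of ID numbers. Vole-high IDs ran from number 205 to 66767 and Peromyscus-high IDs from 2033 to 66575. Members made up 0.881% to 1.60% of the shared IDs in each block of 10000 numbers, with the highest share in the block from 60000. No 2 members had numbers 1 apart. The closest were 3 apart, and these included members of opposite sets. Vole-high ENSRNOP00000009211 lay 3 from Peromyscus-high ENSRNOP00000009214, and vole-high ENSRNOP00000064339 lay 3 from Peromyscus-high ENSRNOP00000064336. A shared ID with a number 1 above or below existed for 9 vole-high and 17 Peromyscus-high IDs. Of the 10 such neighbours of vole-high IDs, 5 were higher on average in the voles, and of the 20 neighbours of Peromyscus-high IDs, 9 were higher in the Peromyscus mice. Across all shared IDs, the voles were higher in 51.1% and the Peromyscus mice in 48.9%. None of the 9375 shared IDs, members included, had the same 4 counts as another.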

How the data were processed

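The deposited table of each library gives, per the file headers, raw read counts and RPM for Ensembl protein IDs. The authors' counts are whole numbers without normalization, and the deposited RPM equal the count divided by 1 constant per library. The listed IDs hold 93.8% to 95.6% of that constant, and no ID is listed at 0. The lowest listed count was 36 in M. ochrogaster, 7 in M. pennsylvanicus, 1 in the California mouse and 6 in the deer mouse. Trimmomatic, BWA and SAMtools were used per the submitters' processing notes. Versions, reference sequences and the handling of reads that match several IDs were not given in the sources used here. How well a species' reads match the reference can change its counts.

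The selection was applied to RPM as deposited. The mating-system test used the raw counts in edgeR 4.0.16 (R 4.3.3) with TMM, filterByExpr, the quasi-likelihood test, genus as block and Benjamini-Hochberg adjustment. The fit was run on counts simulated from the mean profile of the 4 libraries, without a genus difference. In the data the estimated biological coefficient of variation was 0.826, with 1 residual degree of freedom. The simulation does not show how many true differences the fit missed here. DESeq2 1.42.0 was an alternative. Counting intervals are exact (Clopper-Pearson, 95%) on the 2 counts that set a gap. Tables of the other species were not used here.

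The members and lists were chosen with earlier results of these data known. Named members had at least 10 counts in each library. They are those with the 10 widest gaps or the 10 highest levels in each direction, those 3 nearest each threshold on either side, and those with the 3 largest mating-system fold changes per direction. The rule also asked for members with adjoining numbers in opposite sets, of which there were none. Not all of these are printed. The IDs listed in only 1 genus and ENSRNOP00000036756, both in the closing section, fall outside this rule and were named after their values were seen. ENSRNOP00000009211 and ENSRNOP00000064336 also fall outside it and were named after their numbers were seen. Planned marker lists needed gene symbols and were not applied.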

Additional observations from a re-analysis of the deposited data

Results flagged for a closer look

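Among the 100 members, 1 Peromyscus-high ID differed by more than 2-fold within both genera and in opposite directions. ENSRNOP00000036756 had 0.404 RPM in the prairie vole and 0.899 in the meadow vole, but 25.8 RPM in the California mouse and 12.3 in the deer mouse. Its log2 ratio of monogamous over nonmonogamous species was -1.15 in the voles but 1.07 in the Peromyscus mice, a difference of -2.22. With 1 library per species this difference was not tested. Of the 5441 shared IDs within the 4-fold limit, 177 (3.25%) did the same.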

How the results depend on the processing

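The 48 vole-high and 52 Peromyscus-high IDs stayed on their side, with no overlap of the genera, under all 3 other scalings tried. The 8-fold gap of the rule fixed this outcome, since the scalings moved gaps by far less. For the narrowest member, ENSRNOP00000002231, the log2 gap was 3.00 on the RPM scale and 2.92 with TMM factors. TMM factors gave 40 and 60 IDs, with 38 and 51 of the members kept, and DESeq2 size factors 41 and 60. Thinning to 72082947 counts gave 47 and 51. Other thresholds changed the counts by construction. A gap of 4-fold gave 111 and 118 IDs, 16-fold gave 19 and 30, a within-genus limit of 2-fold gave 22 and 26, and no limit gave 65 and 83. At least 50 counts in each library left 29 vole-high and 49 Peromyscus-high IDs, a vole-high share of 37.2% against 48%. With unlisted IDs of the low genus set to the lowest listed count, 66 and 141 IDs qualified (31.9% vole-high). Leaving out 1 library, which also drops a within-genus limit, gave 120 (without M. ochrogaster) to 495 (without P. californicus) vole-high IDs. It gave 171 (without P. californicus) to 566 (without M. pennsylvanicus) Peromyscus-high IDs, and a vole-high share of 19.6% to 74.3%. In each of these 4 cases more IDs qualified in the direction of the genus that kept both libraries. For the mating-system test, edgeR called 0 IDs with DESeq2 size factors, without a filter and without the genus block, and DESeq2's Wald test called 288. With the block, fits without a library have no residual degree of freedom. Fits without the block that left out each library in turn were chosen after seeing the data. Each left 1 library in a mating class and mixed genus with mating system, so no conclusion is drawn from them.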

Other observations

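IDs listed in both tables of one genus and in neither of the other lie outside the selection, which needs a value in all 4 libraries. This was so for 1073 vole IDs and for 137 Peromyscus IDs. The tables differ in length, with 18547 IDs listed in M. ochrogaster, 13841 in M. pennsylvanicus, 13167 in P. californicus and 14200 in P. maniculatus. How far table length and read depth set the 1073 and 137 was not tested. Within the 4-fold limit were 620 and 99 of them, with at least 10 RPM in both libraries for 66 and 42, and at least 100 RPM for 8 and 7. Those within the limit were ranked by the lower RPM of their genus, and the top 2 were named after their values were seen. For vole-only IDs these were ENSRNOP00000004692 with 414 RPM in the prairie vole and 1136 in the meadow vole, and ENSRNOP00000038248 with 471 and 279 RPM. For Peromyscus-only IDs they were ENSRNOP00000016567 with 378 RPM in the California mouse and 314 in the deer mouse, and ENSRNOP00000050938 with 285 and 260.4 RPM. The tables list no zeros, so an unlisted ID was given no value, and its level in the other genus is not known.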
